A study of Mus musculus with 9 samples.

Results

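The AP-1 transcription factors described here are 10 genes taken by symbol from the deposited per-library expression table: Fos, Fosb, Fosl2, Jun, Junb, Jund, Atf3, Batf, Batf3 and Maff. All 10 were present among the 22036 genes of the table and all 10 were among the 14955 genes tested. RNA was sequenced from microglia, which are the brain's own macrophages, taken by cell sorting from female wild-type mice of the C57BL/6 strain. The young group was 6 months old, the middle-aged group 15 months and the old group 23 months, and no group received a treatment that the labels name. Each age had 3 libraries, and each library pooled the cells of 3 separate mice before RNA extraction, and p-values measure only the spread between such pools. Values are on a log2 scale of normalized counts, by a transformation that is not stated. A difference of 1 is a 2-fold change on this scale, which need not equal the change in the counts themselves. The comparisons ask how expression differs between the ages.

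AP-1 is a family of dimeric transcription factors built from proteins with a basic DNA-binding region and a leucine zipper. Jun proteins can pair with each other or with Fos proteins, whereas Fos proteins need a partner; ATF and BATF proteins join the same dimers, and small Maf proteins such as Maff lack a transactivation domain. Several of these genes are immediate early genes, which are switched on within minutes of a stimulus through MAP kinases and need no new protein. In microglia and other macrophages AP-1 works beside PU.1 at enhancers of activation genes, and immediate early genes can also be switched on while a tissue is being dissociated and sorted.

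The stretches directly upstream of 4 members are shown because Fosb and Jun had the most marked 15-month peak, Fos had the highest level per length, and Junb had another pattern. They are the 250 bases before the RefSeq start of each gene on GRCm38.p6, read 5′ to 3′ on the gene's strand, and RefSeq entries matched 10 of 10 members with 12 upstream stretches. Capitals mark matches to the cyclic AMP response element core TGACG on either strand, or to TGACATCA, a sequence related to the AP-1 site.
Fos, plus strand, chr12:85473640-85473889: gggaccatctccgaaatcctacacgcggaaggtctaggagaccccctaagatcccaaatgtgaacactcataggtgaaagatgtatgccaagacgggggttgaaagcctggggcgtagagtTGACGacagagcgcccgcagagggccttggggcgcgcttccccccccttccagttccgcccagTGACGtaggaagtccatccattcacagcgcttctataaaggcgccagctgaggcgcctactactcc
Fosb, minus strand, chr7:19310046-19310295: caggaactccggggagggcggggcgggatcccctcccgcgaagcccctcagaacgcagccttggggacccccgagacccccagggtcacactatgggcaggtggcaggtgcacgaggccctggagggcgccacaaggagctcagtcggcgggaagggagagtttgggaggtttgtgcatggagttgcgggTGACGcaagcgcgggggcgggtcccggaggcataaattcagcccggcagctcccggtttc
Jun, minus strand, chr4:95052223-95052472: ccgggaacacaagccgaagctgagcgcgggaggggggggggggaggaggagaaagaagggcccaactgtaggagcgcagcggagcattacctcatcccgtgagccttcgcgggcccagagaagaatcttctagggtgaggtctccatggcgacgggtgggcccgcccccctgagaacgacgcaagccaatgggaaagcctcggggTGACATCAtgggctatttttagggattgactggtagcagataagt
Junb, minus strand, chr8:84978749-84978998: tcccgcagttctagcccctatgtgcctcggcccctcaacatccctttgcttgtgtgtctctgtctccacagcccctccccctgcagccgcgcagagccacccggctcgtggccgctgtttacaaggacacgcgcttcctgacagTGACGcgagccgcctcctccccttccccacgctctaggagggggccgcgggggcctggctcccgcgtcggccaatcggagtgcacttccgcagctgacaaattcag
Fos held TGACG at 129 to 125 and at 66 to 62 bases before its start, Fosb at 60 to 56 and Junb at 106 to 102. Jun held TGACATCA at 45 to 38 bases before its start, and so did 1 of the 3 Maff stretches at the same distance, with CGTCA at 122 to 118. Over all 32851 RefSeq stretches of this length, 17.8% held TGACG and 2.93% held TGACATCA, both strands searched. The AP-1 site TGANTCA, present in 6.75% of all stretches, had no match in any of the 12 member stretches. The CArG box, present in 1.47%, had none either. The full element TGACGTCA, which contains TGACG and was present in 1.55% of all stretches, matched in another Maff stretch, at 29 to 22 bases before the start. Atf3 and Batf held the core as well, in the CGTCA orientation for Atf3. These matches describe letters in a short window, and more distant sequence was not analysed here. RefSeq starts and the GENCODE gene bounds differ for some members. The Jund stretch, at 70697489 to 70697738, does not adjoin the GENCODE start of the gene at 70698949. Those of Fosl2, Atf3 and Batf3, and the Maff stretches that held a match, lie inside the GENCODE gene. A match or a missing match therefore does not cover every gene start.

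Some facts of the libraries bear on these genes. No read total was at hand and the depth of each library is unknown. Of the variance, 34.6% lay on the first principal component, with old replicate 3 at 29.9 and the other 8 libraries between -14.4 and 5.90. Microglial markers were abundant: Cx3cr1 and the other 11 markers of 12 in the table all passed the filter on low values. Markers of neutrophils, blood granulocytes that microglia preparations can contain, were also abundant, with 14 of 15 above the filter and Stfa2 below it. Their summed normalized counts ran from 322029 to 556523 in young, 485917 to 1053340 in middle-aged and 266861 to 541384 in old libraries. The 12 microglial markers summed to between 1536840 and 2126690. The highest neutrophil sum was in middle-aged replicate 2 and the lowest in old replicate 1. In such bulk samples fewer cells of a type and less RNA per cell cannot be told apart.

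Relative to transcript length, Fos was by far the most abundant member. Its mean in young libraries was 15.9 on the log2 scale of normalized counts per kilobase of exon, rank 28 of 21972 genes with a known length. Atf3, which encodes a stress-induced ATF family repressor and activator, followed at 13.9 and rank 124, and Jun at 9.91 and rank 2430. Batf, Batf3, Jund, Fosb and Junb lay close together, between 8.26 and 8.94 per kilobase. Fosl2 had 6.51 and Maff 4.69, the lowest of the members. Fos, Atf3, Jun and Batf held the first 4 places in this order at each age, and Fosl2 and Maff the last 2. Fosb moved from place 7 in young to 5 in middle-aged and 8 in old libraries.

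**Figure D1:**
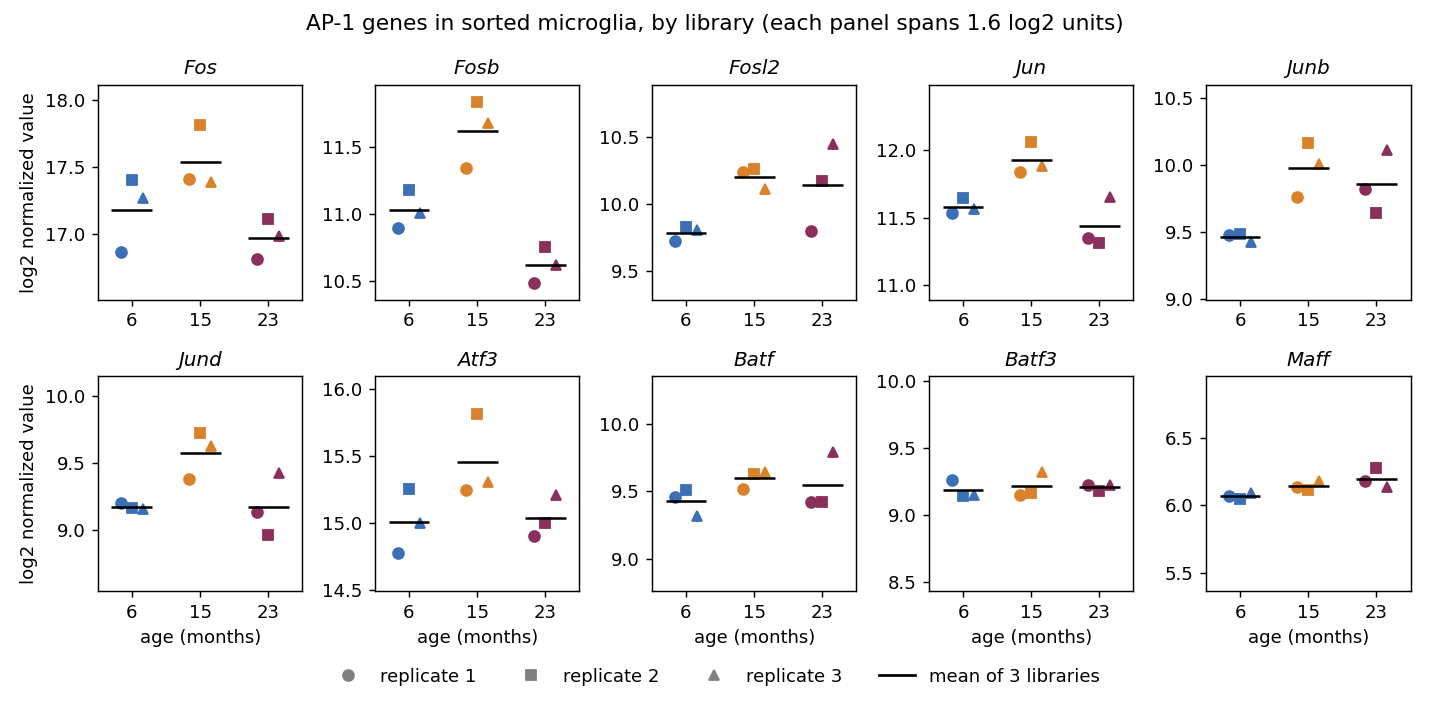
Log2 normalized values of the 10 AP-1 genes at 6, 15 and 23 months, with 1 point per library (3 per age, marker shape by replicate number) and a line at the mean; all panels span the same width on the log2 scale. Fosb and Jun are higher in all 3 libraries at 15 months than in any other library, while Batf3 and Maff vary little.

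Among the Fos genes, Fosb was the member that differed most between ages. FosB is a Fos family protein that is induced by stimulation and dimerizes with Jun proteins. Fosb lies on chromosome 7 at 19302696 to 19310051 of GRCm38, on the minus strand. Its log2 values were 10.89, 11.18 and 11.01 in young replicates 1 to 3, 11.34, 11.83 and 11.67 in middle-aged ones and 10.49, 10.75 and 10.62 in old ones. No 2 ages overlapped: every middle-aged library was above every young one, and every old library was below every young one. Fosb fell to 0.501 of its middle-aged value in old libraries (log2 difference -0.997 ± 0.139 SE, n = 3 per group; limma, Benjamini-Hochberg adjusted p = 0.0336). It was the 1 member of 10 called in that comparison, where 0.0134% of all genes tested were called lower. Fosb was also the 1 member of 10 called by the F test over the 3 ages, against 0.836% of all genes (adjusted p = 0.0169). The difference at 15 months against young was 0.59 ± 0.14 (1.503-fold; adjusted p = 0.173), and that of old against young was -0.41 ± 0.14 (adjusted p = 0.174); neither passed the threshold. The old against middle-aged call was kept without middle-aged replicate 1 and lost on leaving out any other library (young replicates 1, 2 and 3, middle-aged replicates 2 and 3, old replicates 1, 2 and 3), with differences from -1.06 to -0.89 and adjusted p from 0.0621 to 0.100 in those 8 fits.

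Fos encodes c-Fos, the founding member of the family and a standard marker of recent cell stimulation. It lies on chromosome 12 at 85473890 to 85477273, plus strand. Its values were 16.87, 17.41 and 17.27 in young, 17.41, 17.81 and 17.39 in middle-aged and 16.81, 17.11 and 16.98 in old libraries. Young and middle-aged libraries overlapped, as did young and old ones, while all old libraries were below all middle-aged ones. The difference of old against middle-aged was -0.57 ± 0.15 (adjusted p = 0.240), that of middle-aged against young 0.36 ± 0.15 (adjusted p = 0.408) and that of old against young -0.21 ± 0.15 (adjusted p = 0.522). In the order of the libraries, young replicate 1 and old replicate 1 were the lowest and middle-aged replicate 2 the highest. Those were also the lowest 2 and the highest on the neutrophil marker list, with mean log2 deviations of -0.42, -0.65 and 0.84. The part of these markers in the Fos values was not tested. Without middle-aged replicate 2 the Fos difference of middle-aged against young was 0.22 and that of old against middle-aged -0.43.

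Fosl2 encodes Fra-2, a Fos protein without a strong transactivation domain. It lies on chromosome 5 at 32135801 to 32157842, plus strand. Its values were 9.73, 9.83 and 9.81 in young, 10.24, 10.26 and 10.11 in middle-aged and 9.80, 10.18 and 10.45 in old libraries. Middle-aged libraries were all above young ones, whereas old libraries spread widely and overlapped both. The difference of middle-aged against young was 0.42 ± 0.15 (adjusted p = 0.310) and that of old against young 0.35 ± 0.15 (adjusted p = 0.259). The second rests partly on old replicate 3 and was 0.20 without it. Old against middle-aged gave -0.06 ± 0.15, with overlapping libraries (adjusted p = 0.913).

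Among the Jun genes, Jun itself was highest in the middle-aged libraries. It encodes c-Jun, the main partner of Fos proteins and the substrate of JNK kinases. Jun lies on chromosome 4 at 95049034 to 95052222, minus strand, in 1 exon. Its values were 11.53, 11.64 and 11.56 in young, 11.84, 12.06 and 11.89 in middle-aged and 11.34, 11.31 and 11.65 in old libraries. All middle-aged libraries were above all libraries of the other ages, and young and old ones overlapped through old replicate 3. The difference of middle-aged against young was 0.35 ± 0.11 (1.27-fold; adjusted p = 0.274) and that of old against middle-aged -0.49 ± 0.11 (0.711-fold; adjusted p = 0.173). Without old replicate 3 the latter was -0.60 (adjusted p = 0.0676). The antisense gene Junos overlaps Jun and was also in the table, with differences of 0.154 ± 0.092 and -0.298 ± 0.092 in the same comparisons. No source used here gives the strand setting of the counting, and reads of Jun and Junos then cannot be told apart, which also holds for Junb and Prdx2 and for Jund and Gm11175, not analysed here.

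Junb values were above young at both later ages, and Jund values at 15 months. JunB is an induced Jun protein that can oppose c-Jun, and JunD is the Jun protein with the steadiest expression in most cells. Junb lies on chromosome 8 at 84974484 to 84978718, minus strand. Its values were 9.48, 9.48 and 9.43 in young, 9.76, 10.17 and 10.01 in middle-aged and 9.82, 9.64 and 10.11 in old libraries. Both later ages were entirely above young, and they overlapped each other. Its differences were 0.51 ± 0.14 at 15 months (1.43-fold; adjusted p = 0.215) and 0.39 ± 0.14 at 23 months (1.31-fold; adjusted p = 0.186), both against young. Without old replicate 3 the second was 0.27. Prdx2 overlaps Junb on the other strand and had differences of 0.053 ± 0.098 and 0.221 ± 0.098 in these comparisons.

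Jund lies on chromosome 8 at 70698949 to 70700616, plus strand. Its values were 9.20, 9.16 and 9.16 in young, 9.38, 9.72 and 9.62 in middle-aged and 9.13, 8.96 and 9.42 in old libraries. Middle-aged libraries were all above young ones, and old replicate 3 alone of the old libraries was above young and overlapped the middle-aged range. Jund had a difference of 0.40 ± 0.13 at 15 months against young (1.32-fold; adjusted p = 0.284) and of -0.40 ± 0.13 from 15 to 23 months (adjusted p = 0.352). Old against young was 0.00 ± 0.13, and -0.12 without old replicate 3. Among the 45 pairs of members, Jun and Jund had the second closest profiles over the 9 libraries, with a root mean square difference of 0.0901 log2 units after each gene was centred on its mean. The closest pair, Batf3 and Maff at 0.0757, varied little in any library.

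Atf3 lies on chromosome 1 at 191170296 to 191218039, minus strand. Its values were 14.78, 15.26 and 15.00 in young, 15.25, 15.81 and 15.31 in middle-aged and 14.90, 15.00 and 15.21 in old libraries. Young and middle-aged libraries overlapped by a narrow margin, and old libraries were all below middle-aged ones. The difference was 0.44 ± 0.16 at 15 months against young (1.36-fold; adjusted p = 0.324) and -0.42 ± 0.16 from 15 to 23 months (adjusted p = 0.432). Without middle-aged replicate 2 these were 0.27 and -0.24. Of all genes tested outside the members, Ly6g, which encodes a neutrophil surface protein, had the third closest profile to Atf3, with a root mean square difference of 0.0964 log2 units. Ly6g values were 8.44, 8.75 and 8.41 in young, 8.58, 9.28 and 8.83 in middle-aged and 8.36, 8.58 and 8.80 in old libraries. The part of neutrophil RNA in the Atf3 values was not tested.

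In the per-library values Batf, Batf3 and Maff varied least. Batf and Batf3 encode small AP-1 proteins known from lymphocytes and dendritic cells, where Batf3 is needed for the cross-presenting subset. Batf ran from 9.32 to 9.51 in young, 9.52 to 9.65 in middle-aged and 9.42 to 9.80 in old libraries, and its difference at 15 months was 0.17 ± 0.12 (adjusted p = 0.667). The old difference against young, 0.12 ± 0.12, was -0.01 without old replicate 3. Batf3 ran from 9.14 to 9.26, 9.15 to 9.32 and 9.18 to 9.23 at the 3 ages, with differences from young of 0.03 ± 0.09 at both 15 and 23 months. Batf lies on chromosome 12 at 85686669 to 85709087 and Batf3 on chromosome 1 at 191097847 to 191108945. Maff, on chromosome 15 at 79346621 to 79359076, ran from 6.05 to 6.09 in young, 6.11 to 6.18 in middle-aged and 6.14 to 6.28 in old libraries. Both later ages lay above young without overlap, by 0.07 ± 0.06 and 0.13 ± 0.06 (adjusted p = 0.710 and 0.287). In the authors' deposited table the old against young difference of Maff was 0.51 ± 0.22, so the size of this difference depends on which deposited table is read.

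Counted over the 10 members, 0 were called at 15 months against young, where 0.114% of all genes tested were called higher (limma, Benjamini-Hochberg adjusted p under 0.05). At an unadjusted p under 0.05, 7 of 10 members were higher and 0 lower, against 6.21% and 5.15% of all genes. The 7 were Fos, Fosb, Fosl2, Jun, Junb, Jund and Atf3. Young and middle-aged libraries did not overlap in 7 of 10 members, all higher at 15 months, against 11.6% of all genes higher and 10% lower. All 10 differences were above 0, with a median of 0.38 beside -0.000824 over all genes tested.

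From 15 to 23 months, 5 of 10 members were lower at an unadjusted p under 0.05, against 4.76% of all genes, and 0 were higher, against 5.42%. The 5 were Fos, Fosb, Jun, Jund and Atf3. Old libraries were below all middle-aged ones in 4 of 10 and above in 0, against 6.41% and 6.47%. The median difference was -0.26, beside -0.00395 over all genes, and 9 of 10 differences were below 0, with Maff the exception at 0.06 ± 0.06. Both of these comparisons use the same 3 middle-aged libraries, so their opposite signs are not separate observations. The same holds for the gene lists described below.

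Between young and old, 0 of 10 members were called, while 1.7% of all genes were called higher and 0.301% lower. At an unadjusted p under 0.05, 3 were higher (Fosl2, Junb and Maff) and 1 lower (Fosb), against 9.07% and 7.69% of all genes. Libraries did not overlap in 2 higher (Junb and Maff) and 1 lower (Fosb), against 12.2% and 12.3%. The median difference was 0.03. The 10 genes lay on both sides of 0 in this comparison, with Junb and Fosl2 at the upper end and Fosb at the lower.

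The middle-aged libraries were also compared with the mean of young and old ones. No member and no other gene passed at an adjusted p under 0.05 (0% of 14955; limma, Benjamini-Hochberg), and 6 of 10 members were higher and 0 lower at an unadjusted p under 0.05, against 4.17% and 3.72% of all genes. Fosb had a difference of 0.79 ± 0.12 (1.73-fold; adjusted p = 0.405) and ranked 1 of the 14955 genes by the size of its test statistic. Jun ranked 43 with 0.42 ± 0.10, Fos 172 with 0.46 ± 0.13, Jund 178 with 0.40 ± 0.12, Atf3 354 with 0.43 ± 0.14 and Junb 650 with 0.32 ± 0.12. Their adjusted p ran from 0.434 for Jun to 0.549 for Junb. Fosb and Jun were the 2 members with every middle-aged library above every library of both other ages, which held for 1.79% of all genes; 0 had every middle-aged library below, against 1.48%.

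The authors' deposited tables, which per the submitters' processing notes name DESeq2 among their tools, called more members than the fit to the library values. At 15 months against young the authors' deposited table called 5 of 10 higher, and 0 lower, where it called 3.26% and 2.53% of its genes. There, Junb had a log2 difference of 0.73 ± 0.17 SE (adjusted p = 0.00146), Fosb 0.65 ± 0.16 (0.00432), Fosl2 0.63 ± 0.14 (0.000692), Jund 0.61 ± 0.17 (0.0103) and Jun 0.44 ± 0.13 (0.0149). In the fit to the library values these 5 differences were smaller, at 0.51, 0.59, 0.42, 0.40 and 0.35. Fos and Atf3 went the other way, with 0.33 and 0.42 in the authors' deposited table and 0.36 and 0.44 in the fit. From 15 to 23 months the authors' deposited table called 3 of 10 lower and 0 higher, against 0.466% and 0.859% of its genes: Fosb at -1.08 ± 0.17 (adjusted p = 3.32e-07), Fos at -0.60 ± 0.15 (0.0140) and Jun at -0.55 ± 0.16 (0.0369). For old against young the authors' deposited table called Junb higher at 0.60 ± 0.20 (0.0445) and Fosb lower at -0.55 ± 0.17 (0.0228), against 4.72% and 2.9% of its genes called higher and lower. Atf3, Batf, Batf3 and Maff were called in none of the 3 authors' deposited tables. 

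**Figure D2:**
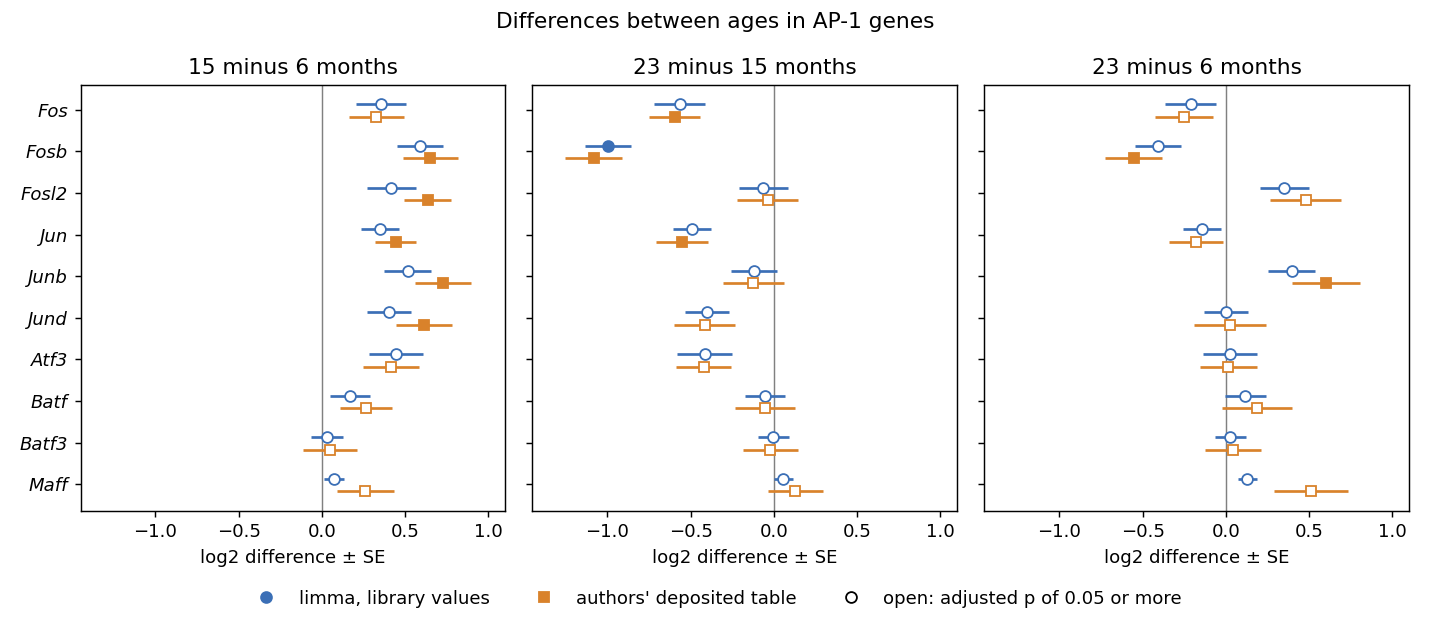
Log2 differences between ages with SE for the 10 AP-1 genes (3 libraries per age), from the limma fit to the library values (blue circles) and from the authors' deposited tables (orange squares), filled where the adjusted p was under 0.05. Fosb from 15 to 23 months is the 1 filled circle, and the authors' tables hold 5 filled squares for 15 minus 6 months, 3 for 23 minus 15 and 2 for 23 minus 6.

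The members did not vary alike across libraries. Middle-aged replicate 2 had the highest value of the 9 libraries for 6 of 10 members, namely Fos, Fosb, Jun, Junb, Jund and Atf3. Old replicate 3 had the highest value for Fosl2 and Batf, middle-aged replicate 3 for Batf3 and old replicate 2 for Maff. Neutrophil and monocyte markers were highest in middle-aged replicate 2 as well. S100a8, which encodes a granulocyte calcium-binding protein, had 16.82 there against 14.46 to 15.95 in the other 8 libraries. The mean log2 deviations of the 15 neutrophil markers were -0.42, 0.13 and -0.16 in young, 0.10, 0.84 and 0.02 in middle-aged and -0.65, -0.02 and 0.16 in old libraries. Of the 14 tested, 0 were called by limma in any of the 4 comparisons; at an unadjusted p under 0.05, 3 were higher and 1 lower at 15 months against young and 2 lower from 15 to 23 months. Against the mean of young and old, 6 of the 14 were higher at 15 months and 0 lower at that threshold, against 4.17% and 3.72% of all genes. At the same threshold, 6.21% of all genes were higher and 5.15% lower at 15 months against young. From 15 to 23 months 5.42% were higher and 4.76% lower. The neutrophil markers had a median difference of 0.50 at 15 months against young, -0.65 from 15 to 23 months and 0.57 against the mean of both ages. The 15 monocyte markers had deviations of -0.37, -0.08 and -0.20 in young, 0.05, 0.43 and -0.19 in middle-aged and -0.02, 0.34 and 0.05 in old libraries. At 15 months against young, 14 of 15 were above 0, with 4 higher and 0 lower at an unadjusted p under 0.05. The median was 0.37 there and 0.09 from 15 to 23 months. The 4 were Fn1, Plac8, Chil3 and Nr4a1. Nr4a1 is itself an immediate early gene, and Chil3 was highest in middle-aged replicate 2 (15.41), as the neutrophil list was. The monocyte list is thus not a separate measure of monocytes. Of 14 markers of border macrophages, the macrophages of the brain's linings, limma called 0 at 15 months against young. At an unadjusted p under 0.05, 0 were higher and 7 lower there. Their median was -0.30 in that comparison and -0.09 from 15 to 23 months. Middle-aged replicate 3 was at 0.02 on the neutrophil list, above young replicates 1 and 3 and old replicates 1 and 2. That library had Fosb at 11.67 and Jun at 11.89, above every young and old library, and Fos at 17.39, below young replicate 2. Without middle-aged replicate 2, the differences at 15 months against young were 0.48 for Fosb, 0.42 for Junb, 0.39 for Fosl2, 0.33 for Jund, 0.28 for Jun, 0.27 for Atf3 and 0.22 for Fos. From 15 to 23 months they were -0.89 for Fosb, -0.43 for Fos, -0.42 for Jun, -0.33 for Jund and -0.24 for Atf3. Without that library 0 members were called in any comparison. The part of RNA from these other cells in the AP-1 differences was not tested.

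**Figure D3:**
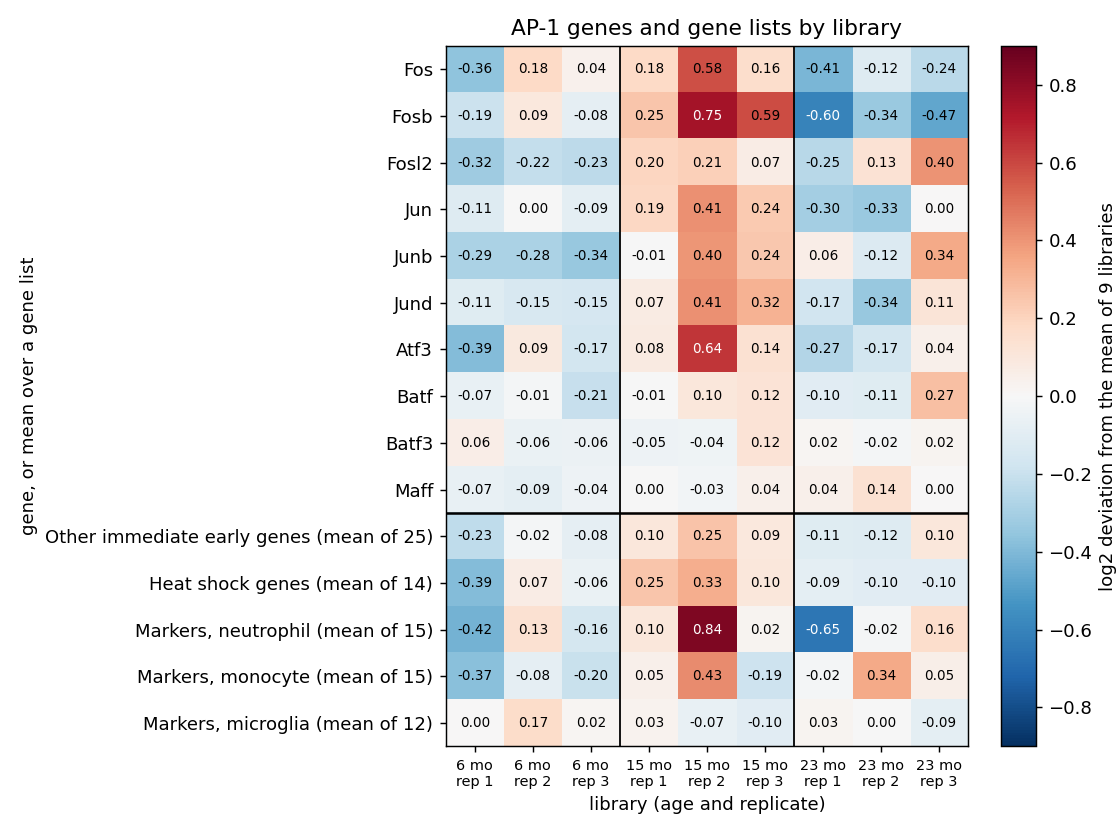
Log2 deviation of each AP-1 gene from its mean over the 9 libraries (top 10 rows) and mean deviation over 5 gene lists (bottom rows, number of genes in brackets), with 1 column per library. Middle-aged replicate 2 is the highest library for 6 of the members and for neutrophil markers (0.84), and the 3 old libraries are the lowest 3 for Fosb.

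Genes with the most similar profiles were named by the root mean square difference of centred log2 values over the 9 libraries, and shared libraries and scaling enter every such likeness. Nearest to Fos were the chaperone gene Hsp90aa1 (0.0896), Lta4h, which encodes leukotriene A4 hydrolase (0.113), and the chaperone gene Dnaja1 (0.116), where Fos itself had an SD of 0.318 over the libraries. Nearest to Fosb were the immediate early genes Klf2 (0.138) and Egr1 (0.171) and the actinin gene Actn1 (0.184), with an SD of 0.462 for Fosb. Nearest to Jun were the zinc finger gene Zfp995 (0.0666), the small GTPase gene Rhob (0.0820) and the kinesin gene Kif20b (0.0850). Nearest to Atf3 were Gm10282 (0.0697) and Mettl9 (0.0959), followed by Ly6g. Egr1 had 13.82, 14.05 and 14.03 in young, 14.07, 14.37 and 14.38 in middle-aged and 13.57, 13.57 and 13.67 in old libraries, without overlap between any 2 ages.

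Other immediate early genes and heat shock genes had positive medians at 15 months against young and negative ones from 15 to 23 months. Of 23 other immediate early genes tested, 0 were called at 15 months against young, 12 were higher and 1 lower at an unadjusted p under 0.05, and the median was 0.32. From 15 to 23 months 1 fell, Egr1 (-0.67 ± 0.11; adjusted p = 0.0415), and 8 were lower and 0 higher at an unadjusted p under 0.05, with a median of -0.15. Klf4 and Klf2, Krüppel-like factor genes, had -0.74 ± 0.13 and -0.77 ± 0.15 in that comparison, neither past the threshold. Of 14 heat shock genes 0 were called in any comparison. At 15 months all 14 differences from young were above 0, with 9 at an unadjusted p under 0.05 and a median of 0.42, and from 15 to 23 months 7 were lower at that threshold, with a median of -0.39. The inducible chaperone gene Hspa1a had differences of 0.59 ± 0.17 and -0.70 ± 0.17, and Hsp90aa1 had 0.45 ± 0.14 and -0.65 ± 0.14. Heat shock and immediate early genes are also known to respond to cell isolation, and the part of handling in these values was not tested.

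Transcripts of the kinases upstream of AP-1 had medians just below 0. Of 24 MAP kinases and activators tested, 0 were called by limma in any comparison. At an unadjusted p under 0.05, 4 were higher and 3 lower at 15 months against young, 2 higher and 5 lower at 23 months against young, and 0 higher and 3 lower from 15 to 23 months. Of all genes tested, 6.21%, 9.07% and 5.42% were higher and 5.15%, 7.69% and 4.76% lower in these comparisons at that threshold. The medians of the 24 genes were -0.04, -0.11 and -0.06, with 9, 7 and 5 of the differences above 0. Map3k8, which encodes the kinase TPL2 upstream of ERK in macrophages, had 0.50 ± 0.14 at 15 months and 0.38 ± 0.14 at 23 months, both against young. Map3k1 had 0.27 ± 0.08 and 0.24 ± 0.08, while Map2k2 had -0.27 ± 0.10 and -0.34 ± 0.10 and Map2k6 0.01 ± 0.13 and -0.37 ± 0.13. A list of 12 symbols for the serum response factor SRF, its partners the ternary complex factors and kinases acting on them, which activate Fos through the serum response element, had 9 genes tested. Srf itself was on the list and not analysed here. Of the 9, 0 were called by limma, 1 was higher at 15 months and 2 were lower at 23 months at an unadjusted p under 0.05, and the medians were -0.09 and -0.05. Elk3 had -0.30 ± 0.15 and -0.46 ± 0.15, and Rps6ka1 had -0.14 ± 0.09 and -0.24 ± 0.09. Mapkapk2 had 0.36 ± 0.16 and 0.10 ± 0.16, and Rps6ka3 0.03 ± 0.12 and -0.19 ± 0.12. Kinase activity was not measured.

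Genes that limit MAP kinase and cytokine signals had a positive median at 15 months against young and a negative one from 15 to 23 months. Of 18 such genes tested, 0 were called by limma in any comparison, 7 were higher and 0 lower at 15 months against young at an unadjusted p under 0.05, and the median was 0.17. Old against middle-aged, 0 were higher and 6 lower at that threshold, with a median of -0.06. Old against young gave 3 higher and 0 lower, with a median of 0.10. Of all genes tested, 6.21% were higher and 5.15% lower at 15 months against young. These shares were 5.42% and 4.76% for old against middle-aged, and 9.07% and 7.69% for old against young. The comparisons from 6 to 15 and from 15 to 23 months share the middle-aged libraries, so their opposite signs are not separate observations. Dusp1, encoding a phosphatase that inactivates p38 and JNK, had 12.998, 13.39 and 13.27 in young, 13.62, 14.15 and 13.83 in middle-aged and 13.06, 13.39 and 13.54 in old libraries. It was thus higher in each middle-aged library than in any other, with differences of 0.65 ± 0.16 at 15 months and -0.54 ± 0.16 from 15 to 23 months (adjusted p = 0.190 and 0.305). Nfkbia, encoding an inhibitor of NF-κB, had 0.71 ± 0.13 and 0.56 ± 0.13 at 15 and 23 months against young (adjusted p = 0.0761 and 0.0555). Tnfaip3, encoding the inhibitor A20, had 0.55 ± 0.14 and 0.52 ± 0.14, and Zfp36l2, encoding an mRNA-destabilizing protein, 0.55 ± 0.13 and 0.24 ± 0.13. For Nfkbia and Tnfaip3 all libraries of both later ages were above all young ones, whereas Dusp1 overlapped between young and old.

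A list of other genes of the AP-1, ATF, CREB and MAF families and related zipper factors had 23 tested, and 0 were called by limma. At an unadjusted p under 0.05, 5 were higher at 15 months and 2 at 23 months against young, with 0 lower. Cebpb, of the separate C/EBP family, was among the higher genes at both ages. The medians were 0.04 at 15 months and 0.00 at 23 months against young. Old against middle-aged gave 1 higher and 3 lower at that threshold, with a median of -0.03. Of all genes tested, 6.21% were higher and 5.15% lower at 15 months, and 9.07% and 7.69% at 23 months, against young. Old against middle-aged, 5.42% were higher and 4.76% lower. Cebpb, encoding a zipper factor that can pair with AP-1 proteins, had 8.71, 8.75 and 8.74 in young, 9.43, 9.95 and 9.499 in middle-aged and 9.42, 9.11 and 9.69 in old libraries. All libraries of both later ages were above all young ones, with differences of 0.89 ± 0.17 and 0.67 ± 0.17 (adjusted p = 0.0911 and 0.0722). Bach1, encoding a repressor that pairs with small Maf proteins, had 0.29 ± 0.12 at 15 months and -0.15 ± 0.12 at 23 months, both against young. In the same comparisons Atf6b had -0.12 ± 0.12 and 0.36 ± 0.12, with each old library above all others.

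Among genes often given as AP-1 targets, Spp1, Itgax and Mmp12 rose at each step of age. Spp1 encodes osteopontin and Itgax the integrin CD11c. This list was drawn up with the rise of Spp1, Itgax, Mmp12 and Lgals3 in these libraries known, so its direction is no independent evidence. Of 21 tested, limma called 3 higher at 15 months against young, 9 at 23 months against young and 3 from 15 to 23 months. Of all genes tested, 0.114%, 1.7% and 0.16% were called higher. In each comparison 0 of the 21 were called lower (adjusted p under 0.05). At an unadjusted p under 0.05, 15, 15 and 7 were higher and 0, 0 and 3 lower. Of all genes, 6.21%, 9.07% and 5.42% were higher and 5.15%, 7.69% and 4.76% lower. The medians of the list were 0.54, 0.60 and 0.12, beside -0.000824, -0.0086 and -0.00395 over all genes tested. Mmp12, a macrophage elastase gene with an AP-1 site known in its promoter, had 1.01 ± 0.15 from 6 to 15 months and 1.00 ± 0.15 from 15 to 23 months. Lgals3, encoding galectin-3, rose by 1.42 ± 0.15 at 23 months (adjusted p = 0.000778).

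**Figure D4:**
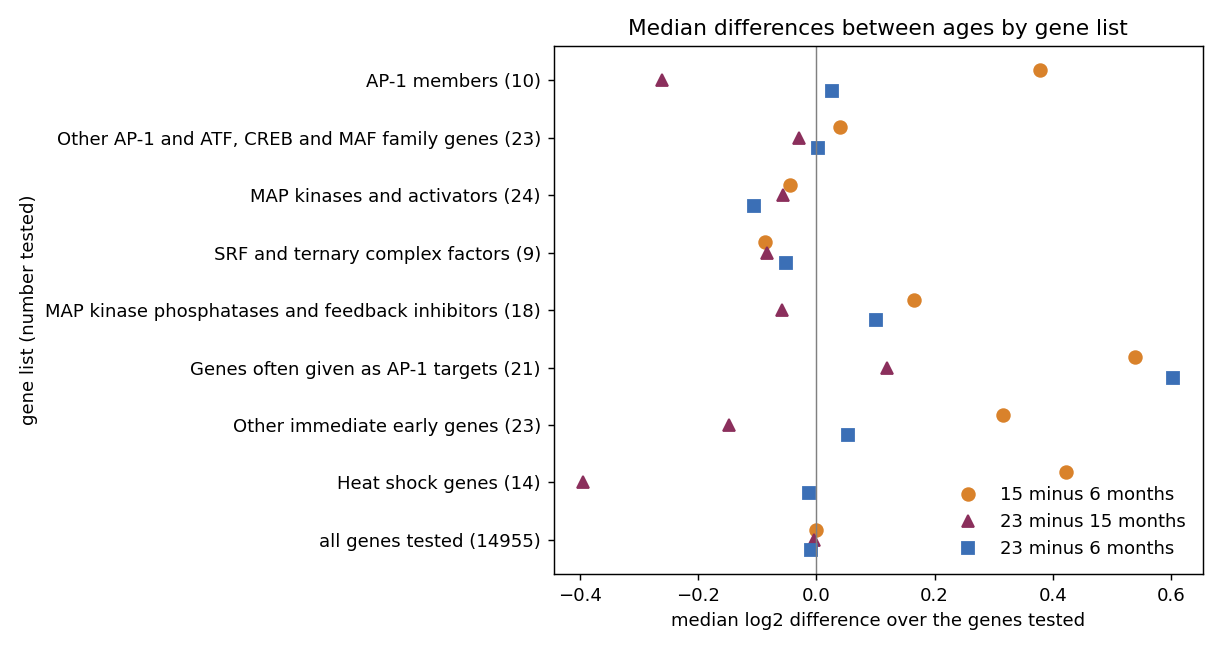
Median log2 difference between ages for each gene list (3 comparisons, number of genes tested in brackets), with all 14955 genes tested in the bottom row. AP-1 members, other immediate early genes and heat shock genes have medians of 0.38, 0.32 and 0.42 for 15 minus 6 months. For 23 minus 15 they have -0.26, -0.15 and -0.39, while the target list has 0.54 and 0.12 in these comparisons. Both comparisons use the same 3 middle-aged libraries, so opposite signs are not separate observations.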

How the data were processed

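Libraries of 9 pools were made with a kit for very small RNA amounts, per the labels' protocols. The submitters' processing notes name CASAVA, cutadapt 1.13, STAR 2.5.3, DESeq2 1.16.1 and the mm10 build as used by the authors. The read counter, strand setting, annotation and transformation are not stated in any source used. The authors deposited log2 values per gene and library, the lowest -2.14 and the highest 20.05. Per the file headers, the authors' comparison tables hold a mean signal (base mean), log2 fold changes, standard errors and test scores. The same deposited tables hold p-values, raw and adjusted; their sign was checked to be older minus younger.

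Genes with at least 3.32 (log2 of 10) in 3 libraries were tested. A linear model of the 3 ages was fitted to all 9 libraries with limma 3.58.1 in R 4.3.3 (variance trend), with Benjamini-Hochberg adjustment over 14955 genes, a threshold of 0.05 and two-sided tests; it was tested on simulated data. With 3 libraries against 3, the smallest p of an exact permutation is 0.1. The members and lists were chosen with earlier results of these data known. The named genes are all members, up to 4 genes per list with the smallest F test p, the 3 nearest profiles of Fos, Fosb, Jun and Atf3, and markers whose list moved with a member, except 1 gene that is not reported here; Cx3cr1 and the overlapping genes Junos and Prdx2 were chosen after their values were seen. Coordinates and lengths come from GENCODE M21 (GRCm38), with lengths for 99.7% of the table's genes. Alternatives covered filters, scaling, variance settings, library weights, a pseudocount of 1, a replicate block, pairs of ages and leaving out libraries.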

Additional observations from a re-analysis of the deposited data

How the results depend on the processing

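Read depth is unknown, so no counting error can be given, and single genes rest on the model's spread pooled over genes. The count of AP-1 members called from 15 to 23 months was 1 in the reported fit and 0 with no filter, with no variance trend, with only the libraries of the ages compared, and with middle-aged replicate 2 and old replicate 3 both left out (chosen after seeing the data); it was 2 (Fosb and Jun) with library weights. Library weights also gave 2 called members at 15 months against young and 2 for old against young (Fosb and Junb in both), against 0, and 4 in the F test over ages (Fosb, Jun, Junb and Jund), against 1; the F test gave 0 with those 2 libraries left out. Leaving out each library gave 0 to 1 members called from 15 to 23 months and 0 to 2 in the F test, and 0 to 0 in the other 3 comparisons. The F test call of Fosb was lost without young replicate 3, middle-aged replicate 2, middle-aged replicate 3 or old replicate 1. The cause of these changes was not tested.

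Over all genes, replicate numbers did not pair the libraries: residuals of same-numbered libraries correlated between -0.241 and 0.234 over 9 pairs. Those of other pairs correlated between -0.437 and 0.421. Some members did follow replicate number: Fosb was lowest in replicate 1 and highest in replicate 2 at each age. Fos was also highest in replicate 2 at each age. Jun, Junb and Jund were not, with replicate 2 lowest among the old libraries. Pairing was not tested for the members alone. With the replicate block the counts of members called were 0, 0, 1, 0 and 1, as without it. For middle-aged against young, the block lowered the adjusted p (limma) of Fos from 0.408 to 0.256 and of Fosb from 0.173 to 0.107. That of Jun rose from 0.274 to 0.330. For old against middle-aged, Fos went from 0.240 to 0.0720, Fosb from 0.0336 to 0.0103 and Jun from 0.173 to 0.239. Over all genes the counts called fell from 17, 299 and 26 to 11, 185 and 14 in the 3 pairwise comparisons, and library weights gave 312, 1609 and 62.

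Signs turned only for differences that no fit called. For old against young, Jund was -0.00399 with median centring, -0.00732 with quantile normalization and -0.0477 with library weights, and ran from -0.124 to 0.105 on leaving out each library. Atf3 was -0.00881 with quantile normalization and -0.0549 with library weights, and ran from -0.0906 to 0.150 on leaving out each library; Batf ran from -0.00664 to 0.182. With middle-aged replicate 2 and old replicate 3 both left out, Jund was -0.124, Atf3 -0.0593 and Batf -0.00664. From 15 to 23 months, leaving out each library gave -0.218 to 0.108 for Fosl2, -0.176 to 0.0119 for Batf and -0.0344 to 0.0505 for Batf3, which was 0.0134 with library weights. Batf3 ran from -0.0241 to 0.0685 at 15 months against young. Against the mean of both ages, leaving out each library gave -0.0373 to 0.0476 for Batf3 and -0.0115 to 0.0269 for Maff, which was -0.00317 with library weights.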
